A study of Mus musculus with 12 samples.

Results

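Cytosolic ribosomal protein genes were examined in whole blood of *Pik3cg-/-* and WT mice. Probes were chosen from the array's annotation where the gene symbol is Rpl or Rps followed by a digit, or Rplp0, Rplp1, Rplp2 or Rpsa, leaving out symbols that start with Rps6k and those of pseudogenes. The rule found 96 of 45281 probes. Of these, 3 belong to *Rps23rg1* and *Rps19bp1*, which share only the spelling, and 93 probes stand for 63 ribosomal protein genes, of 19057 genes named on the array. The large subunit accounts for 58 probes of 38 genes and the small subunit for 35 probes of 25 genes. Ribosomal proteins that carry other symbols, and *Rpl5*, *Rpl11* and *Rps27a*, were not analysed here.

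The study compared female *Pik3cg-/-* mice (n = 3), which lack the catalytic gamma subunit of phosphoinositide 3-kinase, with female WT mice from the C57BL/6J Jax strain (n = 3), at an age of 13 to 16 weeks. The knockout allele came from a mixed 129 and C57BL/6J background, was crossed back to C57BL/6J and then kept within 1 closed colony, and the WT mice are not described as littermates, so colony and genotype cannot be told apart. Letters A to C number the mice within a genotype, and the sources used here do not state that a letter pairs a knockout with a WT mouse. Blood RNA of every mouse went through labelling in duplicate and onto a pair of Illumina MouseWG-6 v2 arrays, 12 arrays in all.

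The ribosome has a large subunit, which joins amino acids, and a small subunit, which reads the mRNA. Their proteins are needed in near equal numbers, and each is encoded by a single expressed gene in most cases, with many silent processed copies elsewhere in the genome. In blood, circulating reticulocytes lose their ribosomes as they mature, and lymphocytes, monocytes and platelets carry their own stocks of ribosomal protein mRNA. Many of these mRNAs begin with a C and a run of pyrimidines, the terminal oligopyrimidine tract, through which the mTOR pathway, downstream of phosphoinositide 3-kinases in many cells, controls their translation. An array measures the amount of an mRNA and not its translation.

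The first bases of the mRNA are shown for genes with the largest differences in each subunit and for *Rps6* and *Rplp2*, because the tract lies there. RefSeq starts on GRCm38.p6 were available for 44 of the 51 ribosomal protein genes measured, and *Rpl3*, *Rpl29*, *Rpl30*, *Rpl32*, *Rplp1*, *Rps14* and *Rps29* have no entry in the table used. Each line gives 30 bases, 15 before the annotated start and 15 from it, 5′ to 3′ on the strand of the gene, and capitals mark the tract. A tract was searched on that strand only, as a C followed by at least 4 bases that are each C or T, beginning within 5 bases of the start. Where a gene had several annotated starts, a match at any of them counted, and a start with a match is the one shown. Of the genes shown, *Rpl34* and *Rps24* had 2 starts and *Rps19* had 3.
Rpl38, chr11:114668565-114668594, plus strand: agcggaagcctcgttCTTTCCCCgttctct
Rpl34, chr3:130730384-130730413, minus strand: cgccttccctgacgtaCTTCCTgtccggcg
Rps24, chr14:24490663-24490692, plus strand: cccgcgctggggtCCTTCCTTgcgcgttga
Rps9, chr7:3704026-3704055, plus strand: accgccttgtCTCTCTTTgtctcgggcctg
Rps6, chr4:86857353-86857382, minus strand: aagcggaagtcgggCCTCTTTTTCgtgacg
Rplp2, chr7:141447636-141447665, plus strand: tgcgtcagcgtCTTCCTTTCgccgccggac
The annotated starts of 4 further genes had no such run within this reach.
Rpl23, chr11:97782425-97782454, minus strand: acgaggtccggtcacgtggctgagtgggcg
Rpl9, chr5:65391417-65391446, minus strand: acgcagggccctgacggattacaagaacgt
Rpl26, chr11:68901551-68901580, plus strand: ctcgcggcaacttacagaaccggaagtcgc
Rps19, chr7:24884577-24884606, plus strand: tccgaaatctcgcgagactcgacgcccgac
A tract was found for 20 of the 44 genes (45.5%), against 21.2% of 27025 genes in the table. In 7 of the 44 genes (15.9%) the start base itself was a C followed by at least 4 such bases, also where the run reached further upstream, against 3.01% of all genes. An annotated start can lie some bases from the true one, so a missing match says only that these letters are not in this window.

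A probe was kept where it was detected above background (detection p under 0.01) on at least 3 of the 12 arrays, which held for 5498 probes in all. Of the 93 ribosomal protein probes, 62 were kept, and they cover 51 genes, 31 of the large and 20 of the small subunit. Of these genes, 48 were detected on all 12 arrays. The exceptions were *Rplp0* (1 of 6 knockout and 3 of 6 WT arrays), *Rpl7l1* (5 and 4 of 6 arrays in knockout and WT mice) and *Rpl24* (5 and 6 of 6). The 12 genes with no kept probe were *Rpl6*, *Rpl14*, *Rpl17*, *Rpl21*, *Rpl22l1*, *Rpl39l*, *Rpl3l*, *Rps15a*, *Rps20*, *Rps23*, *Rps4l* and *Rpsa*. Their probes were detected on no array, apart from that of *Rpl22l1*, which was detected on 1 knockout and 1 WT array. Levels are given as log2 intensity after background correction and quantile normalization, averaged over the 2 arrays of a mouse, and each gene is represented by its brightest kept probe. On this scale the genes averaged 7.09 to 16.09 over all mice, with a median of 12.50.

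The deleted gene does not check the labels here. Of its 2 probes, one was seen above background on 2 of 6 arrays per genotype, with log2 intensities of 7.18, 7.45 and 6.96 for the knockout and 6.74, 6.92 and 7.15 for the WT mice, and the other on no array. At the detection limit above, 3558 to 5511 probes were detected on the knockout arrays and 4648 to 4995 on the WT arrays, and the arrays of knockout C detected the fewest (3558 and 3696). The number of ribosomal protein probes detected was nearly even, 59 to 62 on the knockout arrays and 59 to 63 on the WT arrays. The labelled tissue was checked against marker lists of 7 blood cell types, each of which had kept members. All 6 platelet markers were kept, and their summed linear intensity was 13107 to 37842 in knockout and 43786 to 61516 in WT mice. *Ppbp*, *Tubb1*, *Gp9* and *Gp5* had groups apart, whereas *Pf4* and *Itga2b* overlapped. None was called (lowest adjusted p = 0.0677 from limma, for *Gp5*). The median of the 6 deviations from the WT mean was −2.60, −0.74 and −0.60 log2 units in knockout A, B and C. In WT A, B and C it was 0.13, −0.36 and 0.25. For monocytes, with 4 of 6 annotated markers kept (not *Ccr2* and *Cd14*), the sums were 5947 to 7258 in knockout and 8069 to 15557 in WT mice. Of these only *Lyz2* (−0.89, adjusted p = 0.0821 from limma) had groups apart, whereas *Mpeg1*, *Ctss* and *Csf1r* overlapped. The groups overlapped in the sums of the neutrophil, B cell, T cell and NK cell lists. Among neutrophil markers, *S100a8* was lower in all knockout than in all WT mice (−0.66). *Csf3r* and *Cxcr2* were higher (0.55 and 0.34), and *S100a9* and *Mmp9* overlapped. Among NK cell markers, *Prf1* was higher in all knockout mice (0.52), and *Klrd1* and *Nkg7* overlapped. None of these 4 was called (adjusted p = 0.146, 0.19, 0.307 and 0.117 from limma, in this order). The kept B and T cell markers overlapped. No sum is read for red cells, since *Alas2* lay at the signal ceiling. Their other kept markers, *Slc4a1* and *Ank1*, had higher values in all knockout than in all WT mice (0.19 and 0.88, adjusted p = 0.517 and 0.0925 from limma). The part of platelets, monocytes, red cells, neutrophils and NK cells in the values below was not tested. In such a mixture of cells, fewer cells of a type and less RNA per cell cannot be told apart.

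None of the 62 ribosomal protein probes differed between *Pik3cg-/-* and WT mice past the threshold of an adjusted p under 0.05 in limma, where 2.73% of all 5498 probes did. The lowest adjusted p was 0.176, for *Rpl38*. At an unadjusted p under 0.05 there were 3 probes, of *Rpl38*, *Rpl30* and *Rpl23*, and the methods' analysis of variance with Benjamini-Hochberg adjustment also called none. No ribosomal protein probe differed by 1.5-fold or more, whereas 14.8% of all probes did. The probe of *Rpl41*, a very short protein at the interface of the subunits, lay at the ceiling of the signal on every array of both groups (at least 96.6% of the array's maximum), and it therefore gets no fold-change of its own. Its fitted value of 0.01 is still counted in totals over 62 probes, 51 genes or 31 large subunit genes.

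The precision of the comparison was set by 3 mice per group. For all 50 genes below the ceiling, the 95% confidence interval of the log2 fold-change excluded a 2-fold difference in either direction. For 32 of the 50 it also lay inside 1.5-fold, that is within 0.58 of 0 on the log2 scale. *Rplp0* and *Rpl7l1* lay near background, so their intervals describe intensities and do not bound a change of the mRNA. Their fold-changes of 0.17 and 0.25 became 0.05 and 0.09 with the authors' values. Over single probes the interval lay inside 1.5-fold for 64.5% of ribosomal protein probes, for 49.7% of 288 other probes as bright as a mean of at least 12, and for 30.2% of all kept probes. The standard deviation of the log2 fold-changes was 0.17 over ribosomal protein probes, 0.40 over the other bright probes and 0.47 over all probes. Of the 62 ribosomal protein probes, 33 had a mean of at least 12, and over these 33 the standard deviation was also 0.17. The share of intervals inside 1.5-fold is not given for these 33 alone. The ribosomal protein probes thus formed a narrow distribution, as the histograms of the fold-changes show.

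**Figure D1:**
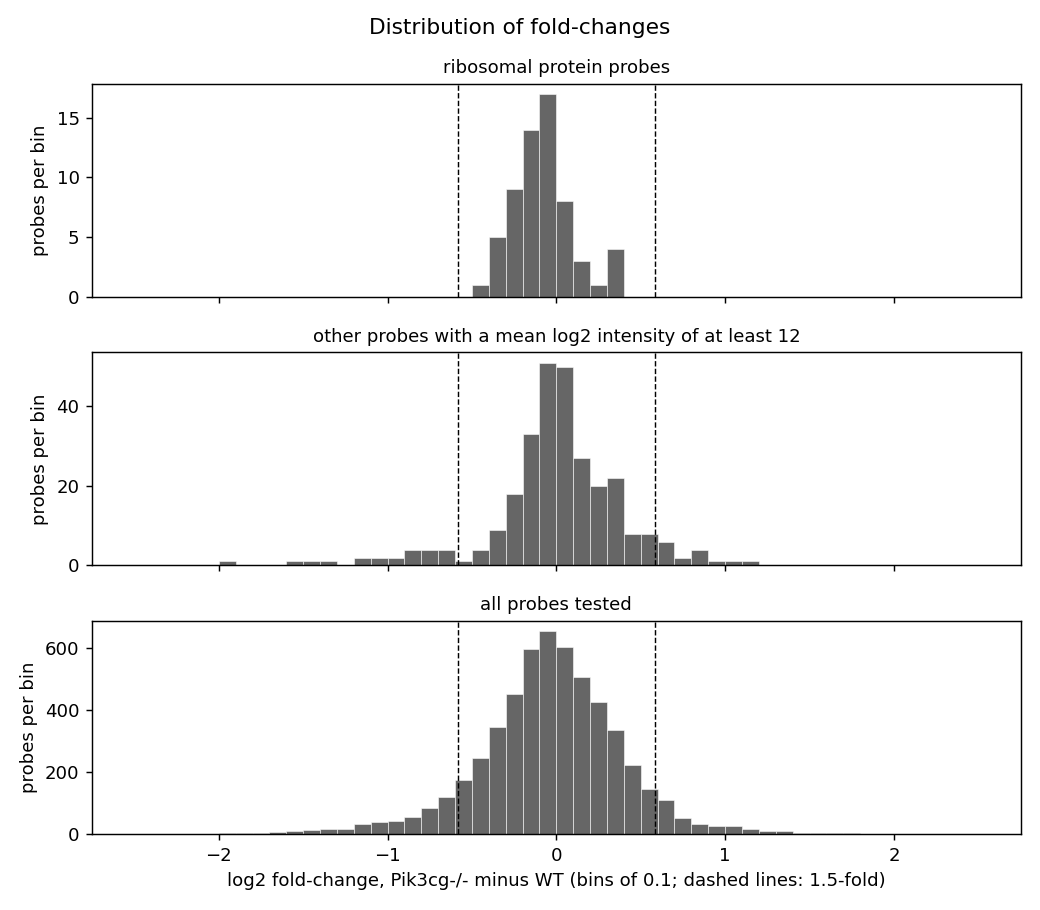
Numbers of probes by log2 fold-change (*Pik3cg-/-* minus WT, bins of 0.1) for the 62 ribosomal protein probes, 288 other probes with a mean log2 intensity of at least 12, and all 5498 probes tested. Dashed lines mark 1.5-fold, which no ribosomal protein probe passed. The outermost bins are not drawn, which leaves a few probes of the last panel out.

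The fold-changes of both subunits lay close to 0 and more often below it than above. The median log2 fold-change was −0.05 over the 31 large subunit genes (−0.06 without *Rpl41*), −0.10 over the 20 small subunit genes and −0.02 over all kept probes. Large subunit genes ranged between −0.43 and 0.36, and below the ceiling 11 had a positive and 19 a negative fold-change. Small subunit genes ranged between −0.39 and 0.01, with 2 positive and 18 negative. Over all kept probes, 53.4% had a negative fold-change. The large subunit thus had members on both sides of 0, while the small subunit had almost none above it. The difference of the 2 medians, 0.05, is set against single mice below.

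**Figure D2:**
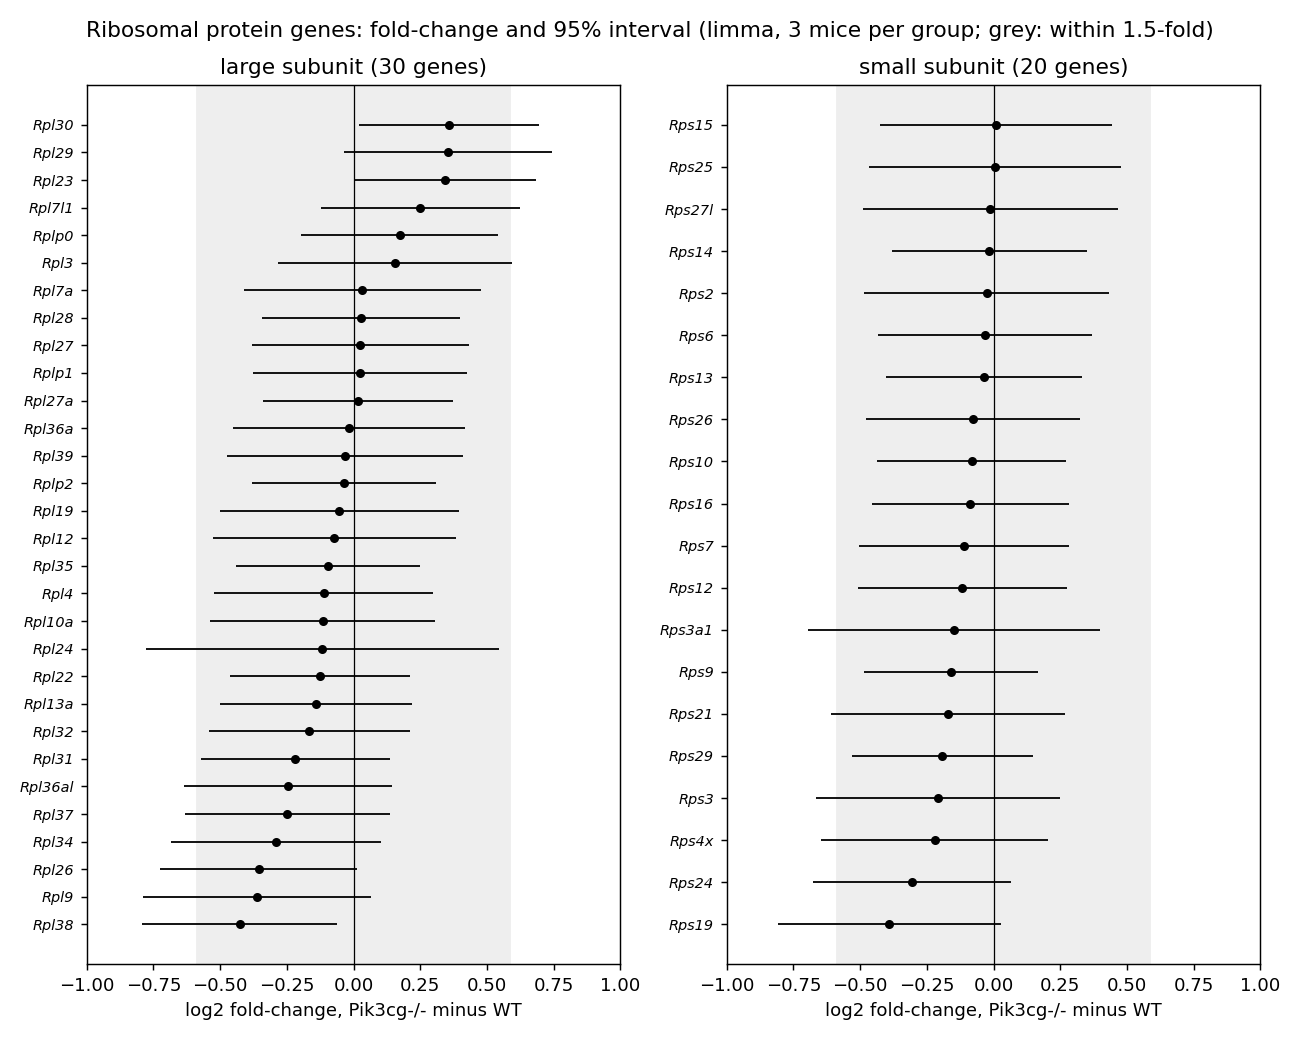
Log2 fold-change (*Pik3cg-/-* minus WT) and 95% confidence interval from limma for 30 large and 20 small subunit genes, 3 mice per group, with the range within 1.5-fold in grey. All points lie inside the grey band, between −0.43 and 0.36, and no interval reaches 1 or −1.

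The knockout and WT mice did not overlap for 15 of the 62 probes. In 3 of these (4.84%) all knockout mice lay above all WT mice, against 13.4% of all kept probes, and in 12 (19.4%) they lay below, against 14.4% of all kept probes. Both directions together gave 24.2% of ribosomal protein probes and 27.8% of all probes, so the share was near the background. By gene, 3 of the large subunit were above and 5 below, and 4 of the small subunit were below.

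Among large subunit genes whose mice did not overlap, *Rpl38* had the largest negative difference. Its product is a small protein whose loss in the Tail-short mouse alters the patterning of the skeleton. Log2 intensity was 14.78, 14.64 and 14.50 in knockout mice A, B and C, against 15.20, 15.01 and 14.99 in WT mice. All 3 knockout mice were below all 3 WT mice. The log2 fold-change was −0.43 (standard error 0.16, 95% interval −0.79 to −0.06, adjusted p = 0.176 from limma).

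*Rpl9*, *Rpl26* and *Rpl34* followed. *Rpl9* encodes a protein near the base of the ribosome's lateral stalk and measured 13.92, 13.82 and 13.52 in the knockout mice, against 14.37, 13.94 and 14.03 in the WT mice. Knockout A and WT B nearly touched, and the log2 fold-change was −0.36 ± 0.19 (standard error, adjusted p = 0.309 from limma). *Rpl26*, whose product lines the exit of the peptide tunnel, measured 12.32, 12.19 and 11.98 in the knockout mice and 12.62, 12.51 and 12.43 in the WT mice. Its log2 fold-change was −0.36 ± 0.16 (standard error, adjusted p = 0.254 from limma). *Rpl34* measured 11.69, 11.78 and 11.35 in the knockout mice and 12.01, 11.85 and 11.83 in the WT mice, with a difference of −0.29 ± 0.17 in log2 units (standard error, limma's adjusted p = 0.368). In all 4 genes the lowest of the 6 mice was knockout C.

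In the opposite direction, the mice of the genotypes did not overlap for *Rpl30*, *Rpl29* and *Rpl23*. *Rpl30* encodes a protein that in yeast also binds its own transcript, and it measured 9.91, 10.08 and 10.06 in the knockout mice, against 9.68, 9.68 and 9.61 in the WT mice. The 3 WT mice lay within 0.1 of each other, and the log2 fold-change was 0.36 ± 0.15 (standard error, adjusted p = 0.212 from limma). *Rpl29*, whose product is also known to bind heparin, measured 11.72, 11.50 and 11.25 in the knockout mice and 11.17, 11.11 and 11.12 in the WT mice. Here the knockout mice were spread widely and knockout C lay closest to WT (log2 fold-change 0.35 ± 0.17, standard error, adjusted p = 0.276 from limma).

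*Rpl23*, whose product can also bind the p53 regulator Mdm2, is the gene whose probes disagreed most. Its brightest probe measured 15.44, 15.47 and 15.28 in the knockout mice and 15.01, 15.08 and 15.06 in the WT mice, with a difference of 0.34 ± 0.15 in log2 units (standard error, limma's adjusted p = 0.232). A dimmer probe measured 13.12, 13.19 and 12.92 in the knockout mice and 13.22, 13.24 and 13.26 in the WT mice, so the groups were again apart but in the opposite order (log2 fold-change −0.16). The third had 0.14. The difference of 0.50 between probes of 1 gene is larger than the fold-change of any ribosomal protein gene. In none of the 8 genes with several kept probes did they differ by over 1.

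Small subunit genes had no member whose knockout mice all lay above the WT mice. *Rps19*, the gene most often mutated in human Diamond-Blackfan anaemia, had the largest negative difference. Its log2 intensity was 13.67, 13.52 and 13.13 in the knockout mice and 13.88, 13.88 and 13.73 in the WT mice. The gap between knockout A and WT C was narrow beside the spread of the knockout mice (13.44 ± 0.28 in knockout and 13.83 ± 0.09 in WT mice, SD, n = 3 each). The log2 fold-change was −0.39 (standard error 0.18, 95% interval −0.81 to 0.03, adjusted p = 0.265 from limma).

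*Rps24*, *Rps29* and *Rps9* were the others. *Rps24*, also a Diamond-Blackfan gene, measured 15.37, 15.35 and 15.07 in the knockout mice and 15.58, 15.67 and 15.46 in the WT mice (log2 fold-change −0.31 ± 0.16, standard error, adjusted p = 0.32 from limma). *Rps29* encodes a zinc-binding protein of the small subunit head and measured 14.26, 14.43 and 14.44 in the knockout mice, against 14.56, 14.56 and 14.58 in the WT mice. Its WT mice were almost level, and the log2 fold-change was −0.19 ± 0.15 (standard error, adjusted p = 0.498 from limma). *Rps9*, whose product lies at the entry of the mRNA channel, measured 12.29, 12.33 and 12.27 in the knockout mice and 12.43, 12.49 and 12.44 in the WT mice. On this probe both groups were tight (SD 0.03 in each) and clearly apart, but the difference was small at −0.16. Its standard error was 0.14 (adjusted p = 0.564 from limma), since limma draws very low spreads toward that of all probes. A dimmer probe of *Rps9* had −0.21 with its groups overlapping.

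**Figure D3:**
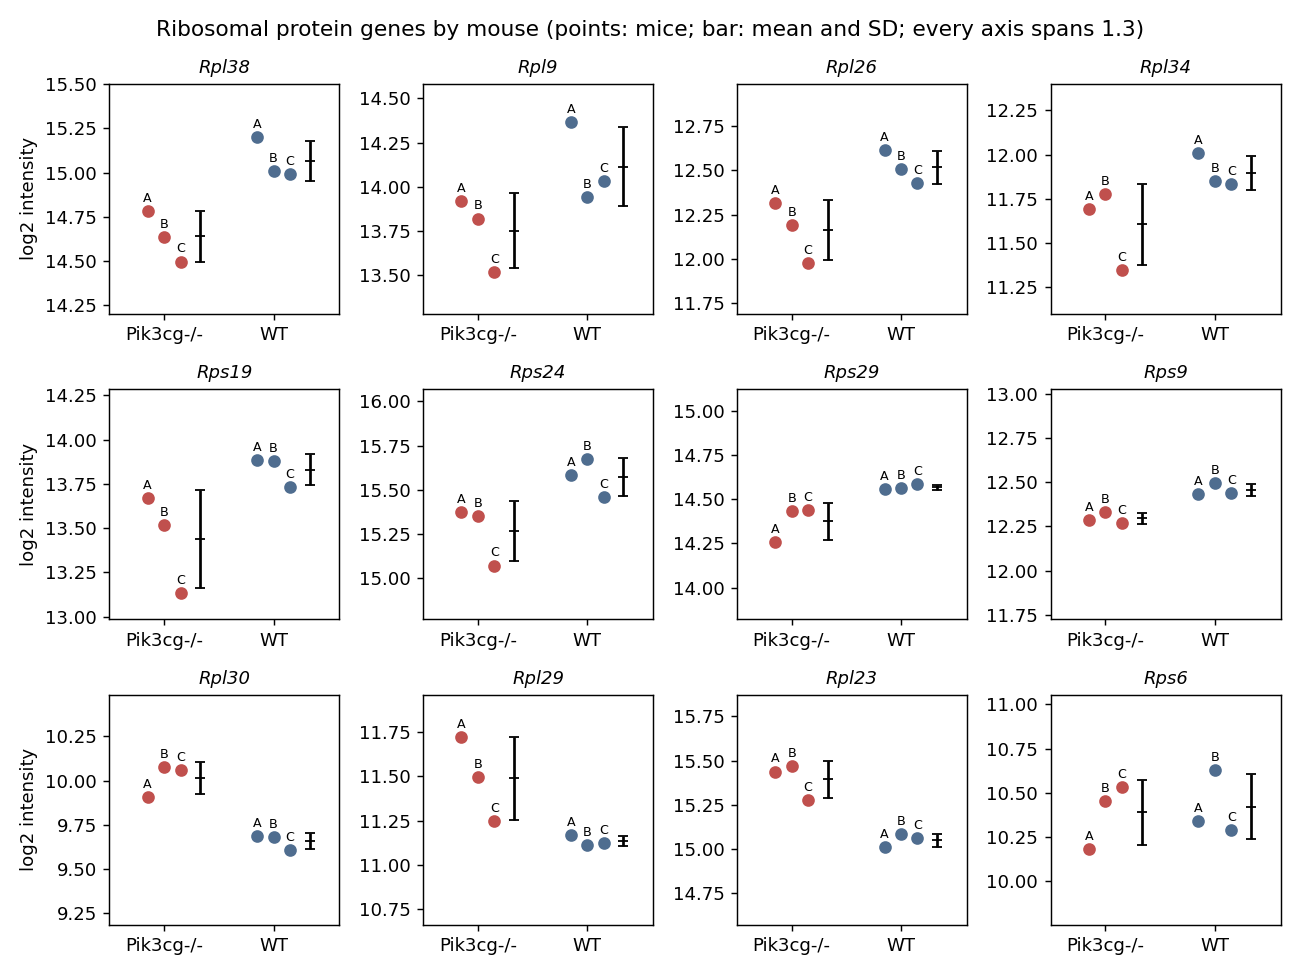
Log2 intensity of 12 ribosomal protein genes in each mouse (points, A to C), *Pik3cg-/-* left and WT right, with mean and SD (n = 3); every vertical axis spans 1.3. The groups are apart in all panels except *Rps6*, and knockout C is the lowest mouse of the 6 in *Rpl38*, *Rpl9*, *Rpl26*, *Rpl34*, *Rps19*, *Rps24* and *Rps9*.

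The other bright genes of both subunits overlapped between the genotypes. *Rpl39*, a very small protein in the wall of the peptide tunnel, measured 14.19, 14.79 and 14.38 in the knockout mice and 14.35, 14.61 and 14.49 in the WT mice (log2 fold-change −0.03). *Rps12*, in the beak of the small subunit, measured 15.70, 15.47 and 15.25 in the knockout mice and 15.64, 15.51 and 15.63 in the WT mice (−0.12). *Rps14*, in its platform, measured 14.65, 14.54 and 14.35 in the knockout mice and 14.41, 14.62 and 14.56 in the WT mice (−0.02). For *Rps2*, at the mRNA entry, levels were 14.76, 14.54 and 14.17 in the knockout mice and 14.38, 14.42 and 14.74 in the WT mice (−0.03). For *Rps2*, *Rps12* and *Rps14*, knockout A was the highest and knockout C the lowest of the knockout mice, as in *Rpl38*. A second probe of *Rps12* had −0.24 with its groups apart, and one of *Rps2* had 0.31 with its groups overlapping.

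The stalk proteins, which recruit the translation factors, showed no difference beyond the spread. *Rplp1* measured 13.72, 14.20 and 13.89 in the knockout mice and 13.83, 14.01 and 13.89 in the WT mice, and *Rplp2*, its partner in the stalk, 14.07, 14.08 and 14.19 in the knockout mice and 14.25, 14.16 and 14.03 in the WT mice. Their log2 fold-changes were 0.03 and −0.04. *Rplp0*, which anchors both, lay near background, and its knockout mice measured 7.30, 7.10 and 7.14 and its WT mice 6.98, 6.86 and 7.18. *Rps6*, the substrate of the S6 kinases downstream of phosphoinositide 3-kinase, measured 10.18, 10.45 and 10.53 in the knockout mice and 10.34, 10.63 and 10.29 in the WT mice. Its log2 fold-change was −0.03 with a 95% interval of −0.43 to 0.37 (adjusted p = 0.946 from limma).

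Ribosomal proteins with a second, related gene were measured through 3 of 7 annotated paralogues. *Rpl36al*, related to *Rpl36a*, measured 9.97, 10.41 and 10.28 in the knockout mice and 10.43, 10.57 and 10.40 in the WT mice (log2 fold-change −0.25). *Rps27l*, a p53-responsive relative of *Rps27*, measured 10.27, 9.57 and 9.76 in the knockout mice and 10.04, 9.83 and 9.77 in the WT mice (−0.01). *Rpl7l1*, a relative of *Rpl7*, measured 7.38, 7.54 and 7.15 in the knockout mice and 7.07, 7.09 and 7.16 in the WT mice (0.25). The groups overlapped in all 3 genes.

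Of the ribosomal protein genes mutated in human Diamond-Blackfan anaemia, 11 of 12 annotated were kept, with a median log2 fold-change of −0.19. None was called, 10 were lower in knockout mice without passing the test, and *Rpl27* alone was higher (0.03). Over all 51 ribosomal protein genes, 72.5% were lower, with a median of −0.08. The next list is not independent of this one, since *Rpl26*, *Rpl31* and *Rpl35* are in both. The 7 kept proteins of the peptide exit tunnel (*Rpl4*, *Rpl19*, *Rpl22*, *Rpl26*, *Rpl31*, *Rpl35* and *Rpl39*) had fold-changes between −0.36 and −0.03 and a median of −0.11, again with none called. Genes with a pyrimidine tract at the start (20) had a median of −0.08, with 17 negative, and those without (24) a median of −0.11, also with 17 negative. The ranges of both sets overlapped, between −0.43 and 0.03 with a tract and between −0.39 and 0.34 without. Since an annotated start can lie some bases from the true one, the second set may hold genes whose mRNA has a tract. The sets therefore compare matches in the window and not mRNAs with and without a tract.

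In single mice, each gene was set against the WT mean of its own probe, since the levels of different probes cannot be compared. The median deviation of the large subunit genes was −0.03, −0.06 and −0.14 in knockout A, B and C, and −0.03, 0.02 and −0.01 in the WT mice. The median deviation of the small subunit genes was 0.00, −0.11 and −0.21 in the knockout mice, and 0.00, 0.05 and −0.06 in the WT mice. Knockout C therefore stood lowest for both subunits, with 21 of 31 large and 18 of 20 small subunit genes below their WT mean. Both medians of knockout A lay close to those of the WT mice.

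The balance of the subunits did not differ between the genotypes by more than the spread between mice. The median of the large minus that of the small subunit was −0.03, 0.05 and 0.07 in knockout A, B and C, and −0.03, −0.03 and 0.05 in the WT mice. It averaged 0.03 ± 0.05 in knockout and 0.00 ± 0.04 in WT mice (SD, n = 3 each), and the groups overlapped.

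**Figure D4:**
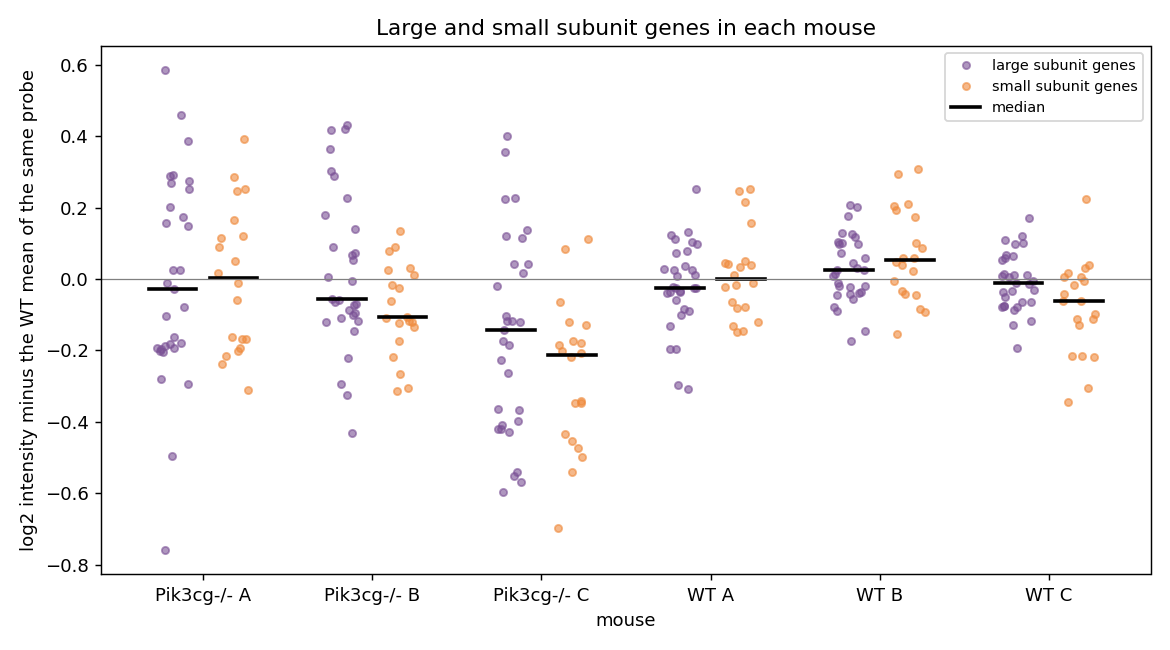
Deviation of each large subunit gene (31, purple) and small subunit gene (20, orange) from the WT mean of its own probe, in log2 units, for each *Pik3cg-/-* and WT mouse, with the median as a bar. The bars fall furthest below 0 in knockout C, at −0.14 and −0.21.

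Knockout C was the lowest of the 6 mice in 29 of the 51 genes (56.9%), whereas it was the lowest for 33.4% of all kept probes. Knockout A was the highest of the 6 in 17 genes (33.3%, against 26.4% of all kept probes). The median deviation of all kept probes was 0.06, −0.02 and −0.12 in knockout A, B and C. It was within 0.01 of 0 in the WT mice, whose own mean is the reference. Quantile normalization gives every array the same distribution over all its probes, so no array can be low as a whole. Over the kept probes alone, the lowest median was that of knockout C. In the same mouse the 3 kept B cell markers (*Cd74*, *Cd79b* and *Blk*, of 4 annotated, *Ms4a1* not kept) had a median deviation of −0.46, against 0.07 and 0.03 in knockout A and B. Their summed linear intensity was 10959 to 18296 in knockout and 14357 to 18470 in WT mice. The part of B cells and of the lower detection on these arrays in the low values of knockout C was not tested. Without knockout C, large subunit genes had a median log2 fold-change of 0.00 and small subunit genes one of −0.03, and 25 of the 62 probes were positive and 37 negative, against 16 and 46 with it.

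The spread between mice was wider in knockout than in WT animals. The median SD of the 51 genes was 0.18 in knockout and 0.10 in WT mice. It was 0.20 and 0.13 over the 288 other probes with a mean of at least 12, and 0.27 and 0.17 over all kept probes. The SD was larger in knockout mice for 35 of the 51 genes. Between technical arrays of the same mouse the SD of these genes was 0.15 to 0.21 in knockout and 0.12 to 0.17 in WT mice, against 0.30 to 0.33 and 0.25 over all kept probes. Duplicate arrays thus agreed more closely for these genes than for the average kept probe. Many of these genes are bright, and duplicates were not compared for other bright probes.

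Genes that build, control or clear ribosomes were followed with lists of their own. Of 36 annotated ribosome biogenesis genes 14 were kept and none was called, with 7 positive and 7 negative fold-changes and a median of 0.02. *Npm1*, the nucleolar chaperone nucleophosmin, had 12.57 ± 0.52 in knockout and 12.69 ± 0.14 in WT mice (SD, n = 3 each). *Eif6*, which keeps free large subunits from joining small ones, had the largest fold-change of the list at 0.44 (adjusted p = 0.169 from limma). Of 14 annotated genes that control the translation of these mRNAs through mTOR and the S6 kinases, 5 were kept, 1 was called higher and none lower. This was *Tsc1*, which as part of the TSC complex restrains mTOR. It measured 9.91, 9.98 and 10.09 in the knockout mice and 9.18, 9.15 and 9.31 in the WT mice, so the groups were well apart. It rose in knockout mice by 0.78 log2 units (standard error 0.15, limma's adjusted p = 0.0345), where 1.44% of all probes were called higher. The call was lost with either technical array alone, with scaling to the 75th percentile, with the methods' analysis of variance (adjusted p = 0.0784), and without any 1 mouse other than knockout A, while the fold-change stayed positive. *Tsc2*, its partner, had −0.17, and *Eif4ebp1*, a translation repressor that mTOR inactivates, had −0.58 (adjusted p = 0.684 and 0.241). *Mlst8*, a component of the mTOR complexes, was detected on 3 of 6 knockout and on no WT array. It measured 7.26, 7.57 and 6.75 in the knockout mice and 6.50, 6.63 and 6.49 in the WT mice. It did not pass the test (adjusted p = 0.146 from limma). Its probe was kept through knockout arrays alone, which favours such a gap, so the gap is not read as a difference. Of 8 annotated genes of ribosome rescue and removal, 3 were kept and none was called, among them *Ube2o*, which marks ribosomal proteins for destruction in maturing reticulocytes, with 15.64 ± 0.06 in knockout and 15.70 ± 0.03 in WT mice (SD, n = 3 each).

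With each array scaled to its 75th percentile in place of quantile normalization, the median of all probes moved to −0.19, and 7 of the 62 ribosomal protein probes had a positive and 55 a negative fold-change. RefSeq names 321 loci as ribosomal protein pseudogenes, and whether the probes also bind transcripts of such copies was not tested.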

How the data were processed

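Whole blood RNA of 3 *Pik3cg-/-* and 3 WT mice was measured on 12 Illumina arrays, 2 per mouse, grouped by genotype from the labels. The deposited intensity values are average signals of a probe, per the file headers. Negative values show that background had been taken off before deposit, and array totals had not been equalized. A detection p-value for every probe was deposited beside them. The deposited log2 values come from the authors' lumi processing (background subtraction, variance-stabilizing transformation, quantile normalization) and served as an alternative. Of lumi, no version is given in the sources used here.

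The neqc function of limma 3.58.1 in R 4.3.3 corrected background from the detection p, added an offset of 16, quantile normalized and took log2. Technical arrays were averaged. Genotypes were compared by lmFit with eBayes, with Benjamini-Hochberg adjustment over 5498 kept probes. The number of arrays limits the precision. An exact permutation test of 3 against 3 cannot go below 0.1 and was not used.

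All 93 probes matched RefSeq by Entrez ID with the same symbol. On the array, 34885 probes have 1 symbol, 18 several and 10378 none. Named genes are those past the threshold, in each subunit up to 4 with the largest difference in each direction among genes without overlap, the 4 brightest, and up to 4 of each role list. *Rpl4*, *Rpl19*, *Rpl22*, *Rpl24*, *Rpl27*, *Rpl31* and *Rpl35*, and the examples from the biogenesis, control and removal lists, were named after their values were seen. Members and lists were chosen with earlier results of these data known. The limma step was tested on simulated data. Alternatives were the authors' values, other background, normalization, filter, probe, array and test choices, and each mouse left out. Plots were made in matplotlib 3.10.9 under Python 3.11.15.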

Additional observations from a re-analysis of the deposited data

How the results depend on the processing

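No ribosomal protein probe was called in any alternative run. Over all probes, the main count of 150 called became 307 with scaling to the 75th percentile, 47 among probes detected on all 12 arrays, 86 with no filter, 83 with the first technical array and 4 with the methods' analysis of variance, and leaving out single mice gave 40 to 344 (344 without knockout A, 46 without knockout B, and 41, 40 and 43 without WT A, B and C). With scaling to the 75th percentile the calls split into 67 higher and 240 lower, against 79 and 71 in the main fit, because the median of all probes moved to −0.19. The medians were then −0.18 for the large and −0.26 for the small subunit, that is 0.01 above and 0.07 below the median of all probes. The signs of the subunit medians are therefore read relative to all probes. Leaving out single mice gave large subunit medians of −0.11 to 0.0039, which turned just positive without knockout C and was lowest without knockout B, small subunit medians of −0.16 to −0.03, and a large minus small difference of −0.0081 to 0.068. That difference was 0.14 with the first and −0.016 with the second technical array alone, against 0.05 in the main fit. The count of probes without overlap was 15 to 26 (26 of 62 without knockout A, where 45.2% of all probes did not overlap, and 25 without WT C, 37.0% of all probes).

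Among the genes followed across the alternatives, those whose sign turned had fold-changes close to 0 in the main fit (−0.12 to 0.03). *Rplp1* had −0.061 with scaling to the 75th percentile and −0.13 with the first technical array, *Rpl39* 0.11 and *Rps2* 0.16 with the first technical array, *Rps14* 0.049 and *Rplp2* 0.080 with the second, and *Rps2* 0.14 with the mean of its probes. *Rpl27* had −0.16 with scaling to the 75th percentile and −0.0046 with the second array, and *Ube2o* 0.018 with cyclic loess, 0.0038 with scaling to the 75th percentile and 0.040 with the second array. Leaving out single mice gave *Rpl39* −0.20 to 0.10, *Rps6* −0.10 to 0.074, *Rplp1* −0.11 to 0.13, *Rps27l* −0.21 to 0.14, *Rps14* −0.083 to 0.066, *Rps2* −0.16 to 0.14, *Rplp2* −0.094 to 0.016, *Rpl27* −0.073 to 0.13 and *Npm1* −0.35 to 0.16. The 11 ribosomal protein genes named for groups that did not overlap, and *Rpl31*, *Tsc1* and *Eif6*, kept their sign in the alternatives run. All of these had groups apart in the main fit, so leaving out a single mouse could not turn their sign. Their kept sign in those runs is therefore not read as stability. The adjusted p of *Tsc1* was 0.121 with scaling to the 75th percentile, 0.0995 and 0.203 with the first and the second technical array, 0.0687 with the replicate block, 0.0784 with the methods' analysis of variance, 0.0105 to 0.047 in the other alternatives, and 0.0267 to 0.159 without single mice, with fold-changes of 0.59 to 0.94 over all of these. *Rpl4*, *Rpl19*, *Rpl22*, *Rpl24*, *Rpl35* and *Mlst8* were not followed.

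With the letter as a replicate block, 111 probes were called in all and no ribosomal protein probe. The letters were not treated as pairs in the main fit, since the sources used here state no pairing. Deviations of same-lettered mice correlated at 0.18, −0.18 and 0.18 for A, B and C, which cannot show whether the mice were paired. The chip as a block was not run, because the file headers name no chip. Probes near background, such as *Rplp0* and *Rpl7l1*, and the probe of *Rpl41* at the ceiling of the signal limit what can be said of these genes.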

Other observations

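A well measured ribosomal protein gene often had a further probe that gave no signal. Of the 31 ribosomal protein probes that were not kept, 16 belong to genes with another kept probe, and 29 of the 31 were detected on no array. *Rpl38* had 1 probe among the brightest of the array and another with a raw signal of at most 116 on any array, and 2 further probes of *Rpl37* reached at most 16.5 and 27.3. For the 12 genes without a kept probe no level is therefore given.

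*Rps23rg1*, a gene derived from an *Rps23* transcript by retroposition, was detected on all 12 arrays. The probe of *Rps23* was detected on none, which gives no level of *Rps23*. Whether the *Rps23rg1* probe also binds *Rps23* transcripts was not tested. Log2 intensity of *Rps23rg1* was 10.15, 9.83 and 9.97 in the knockout mice and 10.57, 10.29 and 10.02 in the WT mice. The groups overlapped (log2 fold-change −0.31, standard error 0.19, adjusted p = 0.38 from limma).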
